A study of Mus musculus with 16 samples.

Results

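Expression of 7 genes of T cell costimulation was described in CD8+CD44+ T cells of the tumor-draining lymph node: the receptors Cd27, Cd28, Icos, Slamf1, Slamf6 and Tnfrsf4, and Cd40lg, which is a ligand and not a receptor. They were taken by name from the 9428 genes of the lymph node gene table, and all 7 had a row there. The cells had been sorted from C57BL/6 mice with melanoma-associated vitiligo, aged 16 weeks, 45 days after tumor surgery, and cells of matched skin were sequenced alongside. The series held 4 libraries (RNA and T cell receptor of each tissue) with 4 lanes each, and the gene table pooled the lanes of the lymph node RNA library. Skin RNA was not analysed here, so receptor sequences alone were used from skin, and no group of healthy mice entered. The labels used here do not state how many mice gave cells.

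The gene table held 3266 cells with 14556622 UMIs (unique molecular identifiers, each standing for 1 captured RNA molecule), at a median of 4423 UMIs per cell and a range of 461 to 12576. Of these cells, 2964 had a barcode in the lymph node receptor table, and 12 had a barcode that also occurred in the skin receptor table, none with the same clone. With 1 library there were no replicates and no test. Cells are not replicates, so all intervals below are exact 95% intervals that cover counting error only. Levels are given as CPM, the UMIs of a gene summed over a group of cells per 1000000 UMIs of that group. A captured molecule counts once whatever its length, and CPM values were not divided by gene length.

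A T cell that meets its antigen also reads costimulatory signals from the cell that presents it. CD28 binds CD80 and CD86 and lowers the threshold of activation, and its relative ICOS is induced on activated and follicular helper T cells. CD27 and OX40, encoded by Tnfrsf4, are receptors of the TNF receptor superfamily that support survival after activation. CD40 ligand, encoded by Cd40lg, is best known on activated CD4 T cells, which use it to license dendritic cells and B cells. SLAM (Slamf1) and Ly108 (Slamf6) are self-binding receptors that signal through the adaptor SAP. Slamf6 is commonly used with Tcf7, the gene of the transcription factor TCF-1, to mark stem-like CD8 T cells. Itgae encodes the integrin chain CD103 of tissue-resident T cells, and Izumo1r encodes folate receptor 4, which is found on regulatory and anergic T cells.

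Positions are from GENCODE M21 on the mouse build mm10. Cd28 (chr1:60716800-60773359) and Icos (chr1:60977927-61000320) lie 205 kb apart on the plus strand of chromosome 1. Slamf1 (chr1:171767127-171801184) and Slamf6 (chr1:171917515-171953170), also on its plus strand, lie 116 kb apart. Tnfrsf4 is at chr4:156013843-156016612 and Cd40lg at chrX:57212143-57224042, both on the plus strand, and Cd27 is at chr6:125232622-125237010 on the minus strand. RefSeq promoters, 250 bases before to 50 after the start on GRCm38.p6, matched 4 of the 7 genes: Cd27, Slamf1, Slamf6 and Tnfrsf4. Those of the neighbouring pair Slamf1 and Slamf6 are printed because these genes took different patterns below, and that of Cd27 because it alone held a TCF/LEF core, CTTTGA or its reverse complement. Capitals mark that core.
Slamf1 (chr1:171766882-171767181, plus strand): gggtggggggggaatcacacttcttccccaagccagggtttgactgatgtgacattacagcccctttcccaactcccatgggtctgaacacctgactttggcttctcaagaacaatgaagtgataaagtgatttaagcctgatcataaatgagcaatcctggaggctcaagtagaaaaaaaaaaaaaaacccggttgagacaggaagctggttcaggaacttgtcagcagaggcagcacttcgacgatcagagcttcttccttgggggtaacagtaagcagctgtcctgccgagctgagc
Slamf6 (chr1:171917212-171917511, plus strand): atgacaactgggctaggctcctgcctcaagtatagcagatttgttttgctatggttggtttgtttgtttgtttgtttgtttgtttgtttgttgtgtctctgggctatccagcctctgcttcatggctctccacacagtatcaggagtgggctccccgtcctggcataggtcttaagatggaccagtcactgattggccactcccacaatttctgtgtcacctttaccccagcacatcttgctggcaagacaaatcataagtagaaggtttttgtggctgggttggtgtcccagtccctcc
Cd27 (chr6:125236978-125237277, minus strand): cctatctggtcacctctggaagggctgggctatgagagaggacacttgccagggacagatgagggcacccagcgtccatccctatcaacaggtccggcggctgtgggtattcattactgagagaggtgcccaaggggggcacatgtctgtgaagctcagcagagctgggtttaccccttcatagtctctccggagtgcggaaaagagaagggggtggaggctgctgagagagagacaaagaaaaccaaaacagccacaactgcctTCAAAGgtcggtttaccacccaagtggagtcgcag
The core in Cd27 began at base 266 of the window, 15 bases after the start. Of all 32851 promoters of the table, 16.0% held this motif on either strand. The AP-1 motif (TGACTCA or TGAGTCA) was in 5.20% of promoters and the Runx motif TGTGGT in 16.8%, and none of the 4 matched promoters held either one. A match describes the letters of the window and is not evidence of binding.

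The 7 genes fell into 3 tiers of abundance. Cd27 had a UMI in 1869 of 3266 cells (57.2%, interval 55.5 to 58.9), with 3104 UMIs and 213 CPM. Cd28 followed with 1272 cells (38.9%, 37.3 to 40.6), 1794 UMIs and 123 CPM. Slamf6 was seen in 538 cells (16.5%, 15.2 to 17.8) at 50.4 CPM, and Icos in 403 cells (12.3%, 11.2 to 13.5) at 34.6 CPM. Slamf1, Cd40lg and Tnfrsf4 were rare. Slamf1 had 122 UMIs in 103 cells, at 8.38 CPM (6.96 to 10.01). Cd40lg had 115 UMIs in 90 cells, at 7.90 CPM (6.52 to 9.48). Tnfrsf4 had 99 UMIs in 76 cells, at 6.80 CPM (5.53 to 8.28). Each of the first 4 levels was separated from the next by its counting interval, whereas the intervals of the 3 rare genes overlapped. For comparison, Tcf7 was seen in 2123 cells at 281 CPM, Itgae in 384 cells at 46.5 CPM and Izumo1r in 171 cells at 21.4 CPM.

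Most positive cells carried few molecules. Of the cells with Cd27, 42.8% had at least 2 UMIs of it, and the highest cell had 8. For Slamf1 this held for 14 of 103 cells, for Tnfrsf4 for 14 of 76 and for Cd40lg for 20 of 90, with highest values of 4, 5 and 4 UMIs. At least 1 of the 7 genes was seen in 78.4% of cells, and in 46.7% after every cell was thinned to 1500 UMIs, which left out 176 shallower cells. By number of the 7 genes, 705 cells had none, 1245 had 1, 950 had 2, 283 had 3, 62 had 4, 17 had 5 and 4 had 6, and no cell had all 7. Of the 21 cells with 5 or more of them, 18 belonged to a single cluster, called cluster 4 below. Their median depth was 5885 UMIs.

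The cells with a UMI of a rare member carried CD8 transcripts as often as other cells or nearly so. Cd8b1 was seen in 97.8% of Cd40lg-positive cells, in 98.1% of Slamf1-positive cells and in 93.4% of Tnfrsf4-positive cells, against 96.6% of all cells. Cd3e was seen in 95.3% of all cells, and Cd44, one of the sort markers, in 26.0%. Zbtb7b, the regulator of the CD4 lineage, had 5 UMIs in the 90 Cd40lg-positive cells, 0 in the 76 Tnfrsf4-positive cells and 41 in the whole library. It was thus seen in 5.56% (1.83 to 12.5) of Cd40lg-positive cells, a higher share than the 1.26% (0.90 to 1.70) of all cells. Of a list of 10 genes of CD4 helper and regulatory T cells, 4 were measured, and Cd4 and Foxp3 were not analysed here. The summed level of the 4 was 139 CPM in Tnfrsf4-positive and 38.5 CPM in Tnfrsf4-negative cells, and 74.6 CPM in Cd40lg-positive and 40.01 CPM in Cd40lg-negative cells. For Slamf1 it was 79.8 CPM in positive and 39.7 CPM in negative cells. The list includes Ctla4, and its part in the member levels was not tested. Transcripts of B cells were present throughout, with Ighm, the immunoglobulin heavy chain gene, in 47.6% of cells at 172 CPM. No class of cells that should lack the 7 genes was set apart here, so their level from free RNA was not measured.

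Clustering of the cells placed most molecules of the rare genes in 2 of 7 clusters. Cluster 4 held 434 cells led by Ctla4, Izumo1r, Ptms and Rgcc. Cluster 5 held 166 cells led by Cx3cr1, Csf1, Lgals3 and Itga1. The 2 clusters made up 18.4% of cells but held 84.3% of Cd40lg UMIs, 64.8% of Slamf1 UMIs, 64.6% of Tnfrsf4 UMIs, 48.0% of Icos UMIs and 46.7% of Slamf6 UMIs. They held 24.1% of Cd28 UMIs and 17.6% of Cd27 UMIs. Since the 7 genes were open to the clustering and Slamf6 was among the 5 leading genes of cluster 4, levels by cluster are a description.

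**Figure D1:**
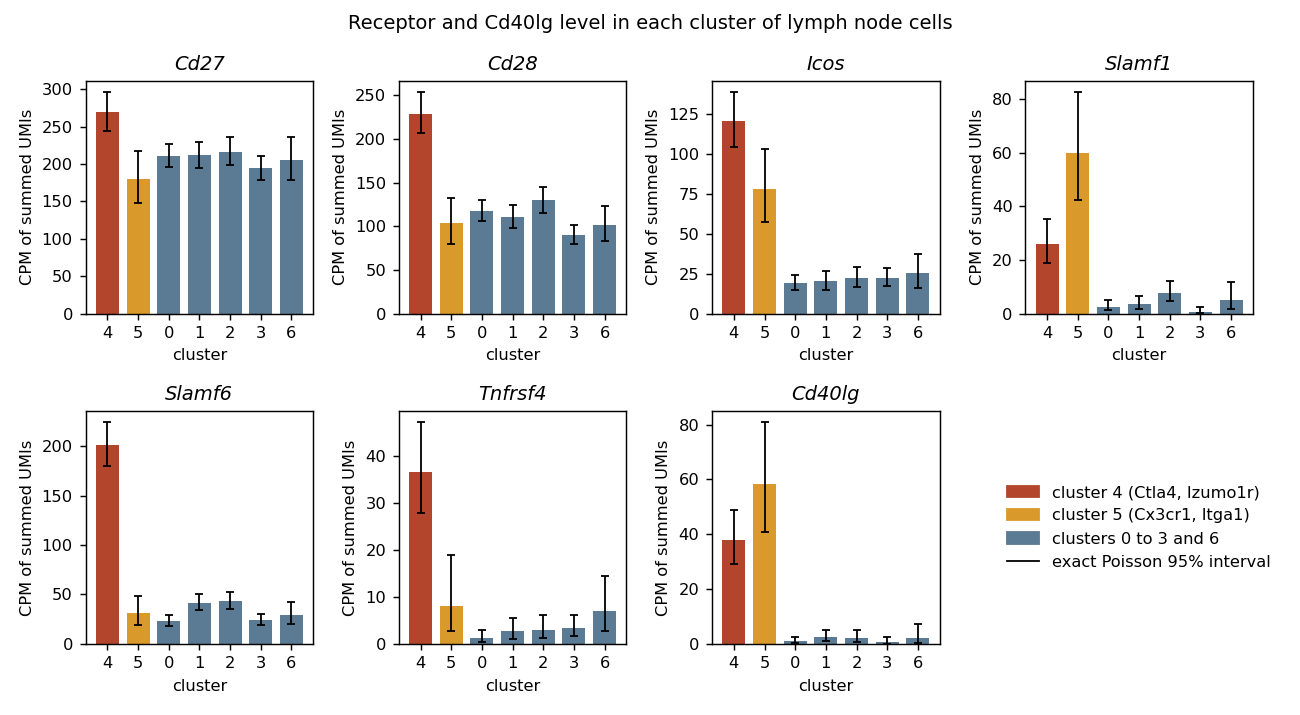
CPM of each gene (vertical axes) in each cluster of lymph node cells (horizontal axes, clusters 4 and 5 at the left), with exact Poisson 95% intervals. Icos, Slamf1 and Cd40lg stand out in both clusters 4 and 5, Slamf6, Cd28 and Tnfrsf4 in cluster 4, and Cd27 varies least.

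In cluster 4, 6 of the 7 genes were at least 2-fold above the 2666 cells of clusters 0 to 3 and 6, where 6.56% of 9038 genes were that much higher and 2.32% that much lower. Cd40lg was at 37.9 CPM (29.0 to 48.7) in cluster 4 and 1.46 CPM in the other cells, a log2 ratio of 4.70 (3.92 to 5.54). Tnfrsf4 was at 36.7 CPM in cluster 4 and 2.84 CPM in the other cells, a log2 ratio of 3.69 (3.06 to 4.34). Slamf6 reached 201 CPM in cluster 4, against 31.7 CPM in the other cells, and was seen in 45.2% of the cells of cluster 4 and 12.2% of the others. Icos was at 121 CPM in cluster 4 and 21.2 CPM in the other cells, and Slamf1 at 26.1 and 3.49 CPM in the same order. Cd28 was at 229 and 110 CPM, a log2 ratio of 1.05 (0.88 to 1.22). Cd27, at 270 CPM in cluster 4 and 208 CPM in the other cells, had a log2 ratio of 0.38. The median gene had a log2 ratio of 0.27 in this comparison, and relative to it 5 of the 7 passed 2-fold, with Cd28 at 0.78 and Cd27 at 0.10.

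Cluster 5 had a narrower set. Of the 7 genes, 4 were at least 2-fold above clusters 0 to 3 and 6, where 9.57% of genes were that much higher and 4.67% that much lower. Slamf1 was at 60.01 CPM (42.3 to 82.7) in cluster 5 and 3.49 CPM in the other cells, a log2 ratio of 4.10 (3.43 to 4.77). Cd40lg was at 58.4 CPM (40.9 to 80.8) and 1.46 CPM, a log2 ratio of 5.32 (4.47 to 6.23). Icos was at 77.8 and 21.2 CPM. Tnfrsf4 passed 2-fold on 5 UMIs, with an interval of -0.19 to 2.87 on the log2 scale. Slamf6 was at 30.8 CPM in cluster 5 and 31.7 CPM in the other cells, Cd28 at 104 and 110 CPM, and Cd27 at 180 and 208 CPM. The median gene had a log2 ratio of 0.25 here, which left the same count of 4 past 2-fold.

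Set against each other, the 2 clusters differed most in Slamf6. Of the 7 genes, 3 were at least 2-fold higher in cluster 4 than in cluster 5 and 1 was lower, where 7.11% of genes were that much higher and 5.27% that much lower. Slamf6 was at 201 CPM in cluster 4 and 30.8 CPM in cluster 5 (log2 ratio 2.71, 2.04 to 3.46), Tnfrsf4 at 36.7 and 8.11 CPM (2.18, 0.87 to 3.85) and Cd28 at 229 and 104 CPM (1.14, 0.76 to 1.55). Slamf1 was lower in cluster 4, at 26.1 CPM against 60.01 CPM in cluster 5 (-1.20, -1.87 to -0.52). For Cd40lg the interval of the log2 ratio, -1.24 to 0.01, included 0. After thinning to 1500 UMIs, Slamf6 was seen in 27.2% of cells of cluster 4 and 2.24% of cluster 5, and Slamf1 in 4.95% and 10.4%. Cd28 was then seen in 28.0% and 10.4%, while Tnfrsf4 was nearly even, at 4.21% of cells of cluster 4 and 3.73% of cluster 5. The clusters differed in depth, with medians of 3188.5 UMIs in cluster 4 and 2673 in cluster 5, against 4073 to 5245 in the other clusters.

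When cells were clustered without the 7 genes, Tcf7, Itgae and Izumo1r, the cluster of highest Izumo1r had 383 cells, 362 of them from cluster 4, and that of highest Itgae had 195 cells, 153 of them from cluster 5. Slamf6 was then at 204 CPM in the cluster of highest Izumo1r and 45.4 CPM in that of highest Itgae, against 33.4 CPM in the other cells. Cd40lg was at 37.8, 61.5 and 1.60 CPM in the same order, and Slamf1 at 29.9, 52.7 and 3.53 CPM. B cell transcripts moved with the clusters in part: the summed level of 7 B cell genes was 362 CPM in cluster 4, 276 CPM in cluster 5 and 193 to 281 CPM in the other clusters. Within that list Cd74, a gene of antigen presentation, was at 108 CPM in cluster 4 and 98.9 CPM in cluster 5, against 9.25 CPM in the other cells, whereas Ighm was at 198, 102 and 172 CPM. The list of 4 CD4 helper and regulatory T cell genes was at 136 CPM in cluster 4, 50.3 CPM in cluster 5 and 24.1 to 37.0 CPM in the other clusters, and 175 of its 219 UMIs in cluster 4 were of Ctla4. The part of either list in the member levels was not tested.

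Outside these clusters the rare genes were close to the limit of detection. Cd40lg was seen in 17 of 2666 cells (0.638%), Tnfrsf4 in 34 cells and Slamf1 in 40 cells. Their levels among the other 5 clusters ran between 0.660 and 2.32 CPM for Cd40lg, 1.18 and 7.05 CPM for Tnfrsf4 and 0.660 and 7.75 CPM for Slamf1. The highest of these for Slamf1 was cluster 2, led by 2010016I18Rik, Tnfaip3 and Kcnq1ot1, where 18 UMIs gave 7.75 CPM (4.60 to 12.3). Slamf6 was at 41.8 CPM in cluster 1 and 43.5 CPM in cluster 2, against 23.2 CPM in cluster 0 and 24.4 CPM in cluster 3. Cluster 6, led by the interferon-induced genes Rsad2, Ifit3b and Ifit1, had the highest Tnfrsf4 of these 5 clusters, on 7 UMIs (7.05 CPM, 2.83 to 14.5).

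Cells were next split by a UMI of Itgae, which gave 384 positive and 2882 negative cells. Icos, Slamf1, Tnfrsf4 and Cd40lg were at least 2-fold higher in Itgae-positive cells, 4 of 7 genes, where 4.02% of 9037 genes were that much higher and 0.996% that much lower. Cd40lg was at 35.0 CPM (26.5 to 45.5) in Itgae-positive cells and 4.55 CPM (3.47 to 5.87) in Itgae-negative cells, a log2 ratio of 2.94 (2.39 to 3.50). Slamf1 was at 29.4 and 5.79 CPM (2.35, 1.79 to 2.89), Tnfrsf4 at 21.3 and 5.02 CPM (2.08, 1.44 to 2.70) and Icos at 101 and 26.5 CPM (1.93, 1.65 to 2.20). Slamf6 lay just under 2-fold, at 90.7 and 45.5 CPM (log2 ratio 0.997, 0.72 to 1.26). Cd28 was at 160 and 119 CPM (0.43) and Cd27 at 227 and 212 CPM (0.10, -0.06 to 0.26). The median gene had a log2 ratio of 0.21, and relative to it the 4 genes stood at 1.72 for Icos, 2.13 for Slamf1, 1.87 for Tnfrsf4 and 2.73 for Cd40lg, with Slamf6 at 0.79 and Cd27 at -0.11.

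**Figure D2:**
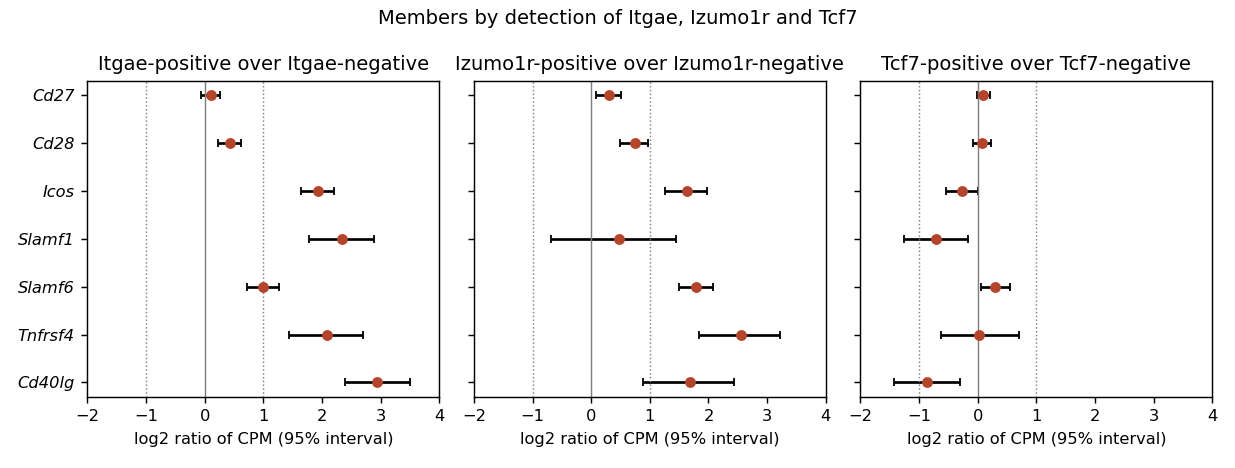
Log2 ratio of CPM (horizontal axes, with exact 95% intervals) of each gene in cells with a UMI of Itgae, Izumo1r or Tcf7 over cells with none. Dotted lines mark 2-fold. Cd40lg is highest for Itgae (2.94), Tnfrsf4 for Izumo1r (2.56), and all 7 genes lie within 2-fold for Tcf7.

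Most Itgae-positive cells lay in clusters 4 and 5. Of the 384 Itgae-positive cells, 147 were in cluster 4 and 118 in cluster 5. Within cluster 4, Icos alone remained at least 2-fold higher, at 184 CPM in Itgae-positive and 85.1 CPM in Itgae-negative cells (log2 ratio 1.11). Slamf1 there was at 24.3 and 27.1 CPM, Slamf6 at 196 and 204 CPM and Cd40lg at 39.9 and 36.8 CPM. Within cluster 5 none of the 7 passed 2-fold, and Cd27 came nearest, at 205 CPM in Itgae-positive and 110 CPM in Itgae-negative cells. In the other clusters Slamf1 (7 UMIs in 119 Itgae-positive and 36 in 2547 Itgae-negative cells) and Cd40lg (5 and 13 UMIs) passed 2-fold, at log2 ratios of 2.01 and 2.99. These splits within clusters were added after the pooled values had been seen. The share of all genes past 2-fold was not measured in them, so whether the genes named stand out within a cluster is not known.

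The split by Izumo1r, with 171 positive and 3095 negative cells, picked out a partly different set. Icos, Slamf6, Tnfrsf4 and Cd40lg were at least 2-fold higher in Izumo1r-positive cells, 4 of 7 genes, where 3.82% of genes were that much higher and 3.35% that much lower. Tnfrsf4 was at 31.6 CPM (20.5 to 46.7) in Izumo1r-positive cells and 5.38 CPM in Izumo1r-negative cells, a log2 ratio of 2.56 (1.84 to 3.23). Slamf6 was at 154 and 44.5 CPM (1.80, 1.503 to 2.08), and was seen in 40.9% of Izumo1r-positive and 15.1% of Izumo1r-negative cells. Cd40lg was at 22.8 and 7.05 CPM (1.69, 0.88 to 2.43) and Icos at 96.2 and 31.1 CPM (1.63, 1.26 to 1.98). Cd28 was at 199 and 119 CPM (0.74, 0.49 to 0.98). Slamf1, with 9 UMIs in Izumo1r-positive cells, had a log2 ratio of 0.47 and an interval of -0.69 to 1.45. The median gene stood at 0.12, and the same 4 genes passed 2-fold relative to it.

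Within cluster 4, which held 105 of the 171 Izumo1r-positive cells, none of the 7 genes was 2-fold higher in Izumo1r-positive cells. The share of all genes that much higher was not measured within this cluster. Slamf6 was at 216 CPM in its 105 Izumo1r-positive cells and 195 CPM in its 329 Izumo1r-negative cells. Tnfrsf4 was at 48.3 and 31.8 CPM and Cd40lg at 35.7 and 38.8 CPM. In clusters 0 to 3 and 6, Slamf6 was at 57.9 CPM in 60 Izumo1r-positive cells and 31.1 CPM in 2606 Izumo1r-negative cells, a log2 ratio of 0.90.

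Itgae and Izumo1r together gave 4 classes of cells. Slamf6 was at 182 CPM in the 53 cells with both, 74.5 CPM in the 331 with Itgae alone, 142 CPM in the 118 with Izumo1r alone and 41.2 CPM in the 2764 with neither. Icos was at 186, 85.5, 56.5 and 25.1 CPM in the same order, so it was highest where both were seen. Slamf1 was at 12.4, 32.4, 10.9 and 5.56 CPM, and stood highest in the cells with Itgae alone, although the first value rests on 3 UMIs and its interval of 2.56 to 36.2 CPM overlaps that of cells with Itgae alone. Tnfrsf4 was at 49.6, 16.2, 23.7 and 4.19 CPM. Cd40lg, at 28.9, 36.1, 20.1 and 3.87 CPM, was higher in each of the first 3 classes than in cells with neither, and the intervals of those 3 overlapped. Of the cells with both, 45 of 53 were in cluster 4.

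Cells were also grouped by how many UMIs of Itgae or Izumo1r they had. Icos was at 26.5 CPM in cells with 0 Itgae UMIs, 68.5 CPM with 1, 163 CPM with 2 and 121 CPM with 3 or more. Slamf6 was at 44.5, 122, 193 and 210 CPM across the same classes of Izumo1r. Tnfrsf4 was at 5.38, 8.54, 6.24 and 124 CPM across those of Izumo1r, the last value resting on 20 UMIs in 8 of 31 cells. Of those 31 cells, 29 were in cluster 4.

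**Figure D3:**
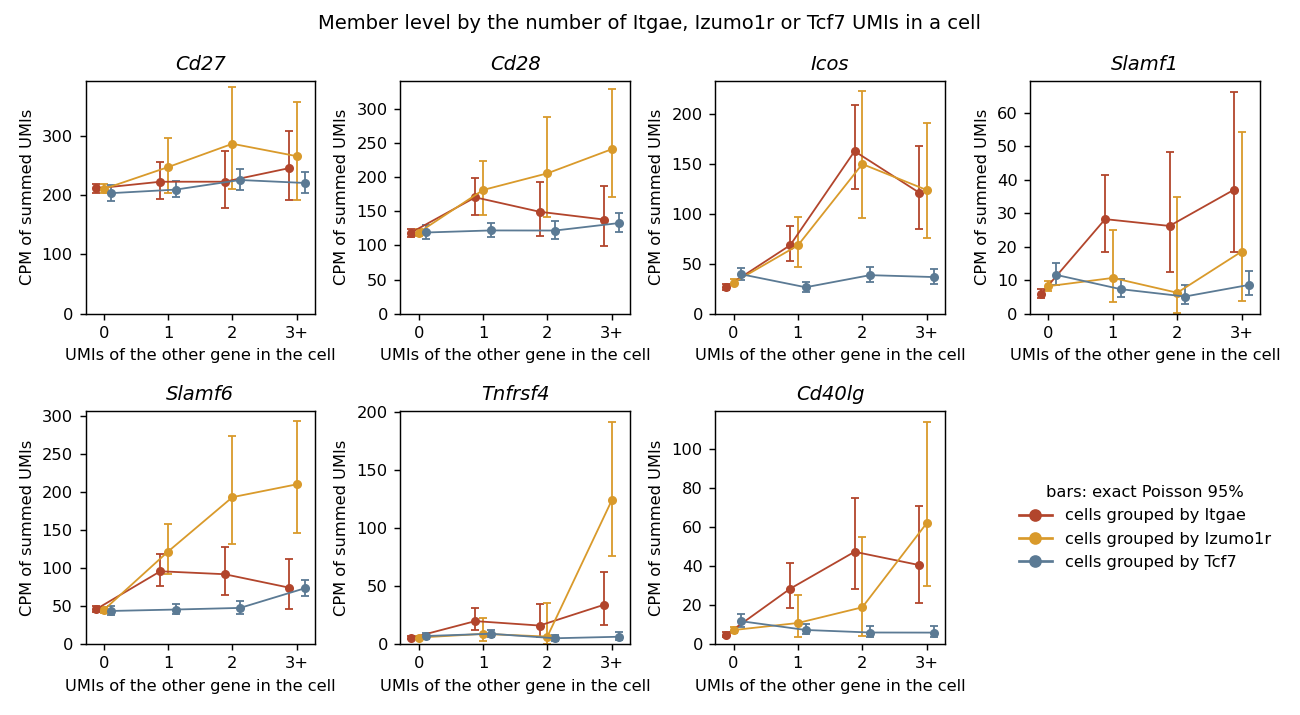
CPM of each gene (vertical axes) in cells grouped by their number of Itgae, Izumo1r or Tcf7 UMIs (horizontal axes, 0 to 3 or more), with exact Poisson 95% intervals. Slamf6 is highest at 3 or more Izumo1r UMIs (210 CPM), Icos at 2 UMIs of Itgae (163 CPM) or Izumo1r (150 CPM), while for Tcf7 Slamf6 is highest in the class of 3 or more UMIs (73.1 CPM).

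Over all cells, none of the 7 genes differed by 2-fold between 2123 Tcf7-positive and 1143 Tcf7-negative cells, where 0.155% of genes were that much higher and 0.188% that much lower. Cd27 was at 217 CPM in Tcf7-positive and 204 CPM in Tcf7-negative cells (log2 ratio 0.09, -0.02 to 0.21), and Cd28 at 125 and 119 CPM (0.07, -0.08 to 0.22). Slamf6 was at 53.4 and 43.3 CPM (0.30, 0.06 to 0.55), with its highest level, 73.1 CPM (63.4 to 83.9), in the 499 cells with 3 or more Tcf7 UMIs. Averaging over cells of their own CPM in place of summed counts gave Slamf6 a log2 ratio of -0.12, so its direction depended on that choice. After thinning, Slamf6 was seen in 8.91% (7.72 to 10.2) of Tcf7-positive and 6.04% (4.66 to 7.68) of Tcf7-negative cells. With Tcf7 also called after thinning, the log2 ratio of Slamf6 was 0.56 (0.20 to 0.91) and that of Cd27 0.25 (0.06 to 0.44). The intervals of the other members then included 0. Cd40lg was lower in Tcf7-positive cells, at 6.35 CPM against 11.6 CPM in Tcf7-negative cells (-0.87, -1.42 to -0.31), and so was Slamf1, at 7.03 against 11.6 CPM (-0.72, -1.26 to -0.17). Tcf7-positive cells were also deeper, at a median of 4674 against 3766 UMIs. By cluster, Tcf7 itself was at 435 CPM in cluster 4, 222 CPM in cluster 5 and 263 CPM in clusters 0 to 3 and 6.

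Within clusters 4 and 5 some members were more than 2-fold lower in Tcf7-positive cells, a split added after the pooled values had been seen. How many of all genes differed by 2-fold in these splits was not measured, so whether the members named here stand out is not known. In cluster 4 Slamf1 was at 18.6 CPM in 302 Tcf7-positive and 50.8 CPM in 132 Tcf7-negative cells (log2 ratio -1.45, -2.39 to -0.49), and Cd40lg at 29.1 and 66.9 CPM (-1.20, -1.98 to -0.40). Slamf6 was nearly even there, at 202 and 198 CPM (0.03, -0.35 to 0.43), and Cd27 was higher with Tcf7, at 285 and 219 CPM (0.38, 0.03 to 0.74). In cluster 5, with 71 and 95 cells, Icos was at 49.6 and 124 CPM (-1.32, -2.24 to -0.44), Slamf1 at 39.2 and 94.2 CPM (-1.27, -2.32 to -0.26) and Cd40lg at 41.8 and 85.7 CPM (-1.04, -2.08 to -0.01). In clusters 0 to 3 and 6 no member differed by 2-fold, and the intervals of all 7 included 0.

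Among Itgae-positive cells, 227 had Tcf7 and 157 did not. Their median depths were 4548 and 2621 UMIs, and the share of all genes past 2-fold was not measured for this split. Slamf1 was at 18.8 CPM in the cells with Tcf7 and 54.3 CPM in those without (log2 ratio -1.53, -2.44 to -0.65). Icos was at 83.1 and 142 CPM (-0.78, -1.24 to -0.30) and Cd40lg at 27.7 and 52.3 CPM (-0.92, -1.72 to -0.10). Slamf6 went the other way, at 102 and 64.8 CPM (0.65, 0.07 to 1.27). Cluster 5 held 23.3% of the cells with Tcf7 and 41.4% of those without. Among Itgae-negative cells the same split left Icos at 26.4 and 26.6 CPM, with and without Tcf7, and Slamf1 at 5.59 and 6.25 CPM.

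Co-detection was measured as the number of cells with UMIs of both genes over the number given by their 2 shares within 10 classes of cells by depth, so that deep cells did not raise it. Of the 21 pairs, 8 reached 1.5 times, where 2.92% of all pairs of genes seen in 2% to 60% of cells did, a range widened after seeing the data because 3 of the 7 genes were in under 5% of cells. Of the 6 pairs among Cd27, Cd28, Slamf6 and Icos, none did, where 0.398% of pairs of genes seen in 5% to 60% of cells reached it. Each of the 8 pairs included Slamf1, Tnfrsf4 or Cd40lg. Of the 8139 genes behind the 2.92%, 6068 were seen in 5% to 60% of cells. That share was thus not matched for rare genes, and 8 of 21 against it is not a like comparison. The highest ratio was that of Slamf1 with Tnfrsf4, in 11 cells against 2.91 (3.78, 1.89 to 6.76), followed by Slamf1 with Cd40lg, in 13 cells against 3.54 (3.67, 1.95 to 6.28). Icos went with Cd40lg in 25 cells (2.08, 1.35 to 3.07), with Tnfrsf4 in 20 cells (1.97, 1.20 to 3.04) and with Slamf1 in 24 cells (1.79, 1.15 to 2.66). Slamf6 went with Tnfrsf4 in 26 cells (1.90, 1.24 to 2.78) and with Slamf1 in 30 cells (1.70, 1.15 to 2.43). Tnfrsf4 and Cd40lg met in 5 cells (1.79), with an interval of 0.58 to 4.19.

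**Figure D4:**
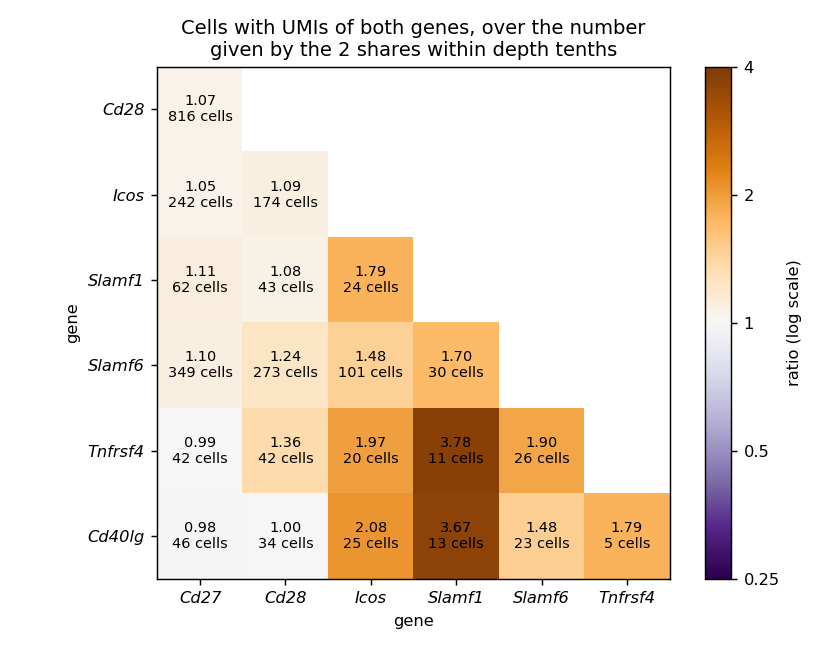
Ratio of the cells with UMIs of both genes to the number given by the 2 shares within 10 classes of depth, for each pair (both axes list genes; the colour scale is logarithmic), with the cells counted. Pairs of Slamf1 with Tnfrsf4 (3.78) and with Cd40lg (3.67) are darkest, and the columns of Cd27 and Cd28 lie between 0.98 and 1.36.

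Pairs with Cd27 lay between 0.98 and 1.11, so the most abundant gene was found with the others about as often as the shares gave. Within cluster 4, a split added after the pooled values had been seen, 2 pairs kept a ratio of 1.5 or more: Slamf1 with Tnfrsf4 in 9 cells (2.85, 1.30 to 5.402) and Slamf1 with Cd40lg in 7 cells (1.93, 0.77 to 3.97). The share of all gene pairs at that ratio was not measured within this cluster. Slamf6 and Icos, at 1.48 over all cells with 101 cells, were at 1.002 (0.77 to 1.28) within cluster 4. Slamf6 and Cd40lg, at 1.48 over all cells, were at 0.88 there. Pairs with the 3 other genes were also counted over all cells. Cd40lg met Itgae in 42 of its 90 cells (3.11, 2.24 to 4.20). Slamf6 met Izumo1r in 70 cells (2.29, 1.78 to 2.89). Cd40lg with Itgae was at 1.05 (0.60 to 1.71) within cluster 4 and 1.01 (0.63 to 1.55) within cluster 5. Outside these clusters this pair was at 6.45 on 5 cells, with a lower limit of 2.09. Slamf6 with Izumo1r was at 1.10 (0.83 to 1.43) within cluster 4. Within cluster 5 it was at 3.08 on 2 cells (0.37 to 11.1), and elsewhere at 1.57 (0.81 to 2.74). Over all cells, pairs with Tcf7 ranged from 0.93 for Cd40lg to 1.11 for Slamf6 and Tnfrsf4.

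Receptor sequences tied lymph node cells to skin. A clone was taken as cells with identical nucleotide sequences of the CDR3, the antigen-contacting loop, of both receptor chains. Cells of 26 clones also found in skin numbered 28 in the lymph node, 24 of them in cluster 5 and 4 in cluster 4, and 2107 cells of 2059 clones were seen in lymph node alone. The shared cells held 67509 UMIs in all, at a median of 2281 UMIs per cell, against 4556 in the lymph node clones, so few molecules stand behind their levels. The β-chain CDR3 sequences of 4 shared clones are printed, 5′ to 3′: that of the clone with most skin cells (88), and of 3 clones whose single lymph node cell had UMIs of 3 of the 7 genes. The names are those of the V gene.
TRBV3 clone: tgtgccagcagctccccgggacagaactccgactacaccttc
TRBV12-1 clone: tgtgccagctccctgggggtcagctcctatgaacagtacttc
TRBV31 clone: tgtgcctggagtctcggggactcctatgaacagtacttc
TRBV13-1 clone: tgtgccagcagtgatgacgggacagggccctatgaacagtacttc
The lymph node cell of the TRBV3 clone had 1 Icos UMI and none of the other 6 genes. The TRBV12-1 cell had 2 Cd40lg UMIs with 1 each of Cd27 and Slamf1, the TRBV31 cell 2 Cd40lg UMIs with 1 each of Cd28 and Icos, and the TRBV13-1 cell 2 each of Cd27 and Slamf1 with 1 of Icos.

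Icos, Slamf1 and Cd40lg were at least 2-fold higher in shared than in lymph node clones, 3 of 7 genes, and Slamf6 and Tnfrsf4 had 0 UMIs in the shared cells and counted as lower. Such differences were common in this comparison, with 25.0% of genes at least 2-fold higher and 26.7% at least 2-fold lower. The shared cells were shallow and mostly of cluster 5, and the parts of depth and cluster cannot be told apart here. Slamf1 was at 133 CPM in shared cells (9 UMIs) and 5.73 CPM in lymph node clones (55 UMIs), a log2 ratio of 4.54 (3.34 to 5.57). Cd40lg was at 104 CPM (7 UMIs) and 5.32 CPM (51 UMIs), a log2 ratio of 4.29 (2.90 to 5.43). Icos was at 163 and 33.5 CPM (2.28, 1.27 to 3.14), Cd27 at 178 and 213 CPM (-0.26, -1.22 to 0.55) and Cd28 at 119 and 124 CPM (-0.07, -1.29 to 0.91). Slamf6 had 0 UMIs in shared cells, with an upper limit of 54.6 CPM, against 46.5 CPM in lymph node clones, so a difference was not detectable at this depth. The same held for Tnfrsf4, with 0 UMIs in shared cells and 5.42 CPM in lymph node clones.

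**Figure D5:**
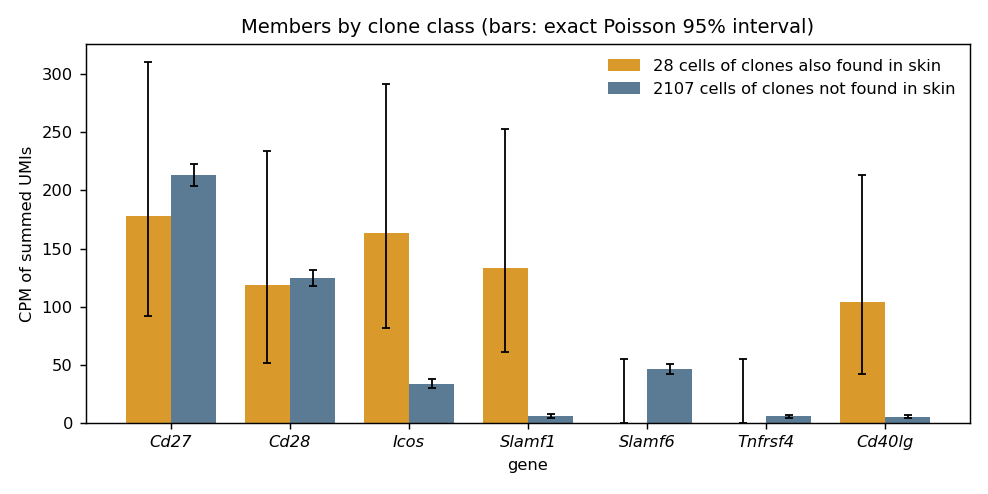
CPM of each gene (vertical axes) in lymph node cells of clones shared with skin and of clones seen in lymph node alone, with exact Poisson 95% intervals. Slamf1 (133 against 5.73 CPM), Cd40lg and Icos are higher in the shared cells, and Cd27 and Cd28 overlap.

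By clone, Icos was seen in 9 of the 26, Cd27 in 9, Slamf1 in 7, Cd28 in 6, Cd40lg in 5, and Slamf6 and Tnfrsf4 in none. By cell, Slamf1 was seen in 7 of 28 shared cells (25.0%, 10.7 to 44.9) and 2.23% of cells of lymph node clones, and Slamf6 in 0 of 28, with an upper limit of 12.3%, and 15.7%. After thinning, Slamf6 was in 0% of the 22 shared cells left, with an upper limit of 15.4%. That limit lies above the 7.27% of lymph node clones, so no difference was shown. Slamf1 was then in 22.7% (7.82 to 45.4) and 0.970%. Within cluster 5, a split added after the pooled values had been seen, Icos was at 179 CPM in 24 shared cells and 55.8 CPM in 51 cells of lymph node clones (log2 ratio 1.68, 0.33 to 3.03). Each side held 11 Icos UMIs. Slamf1 was at 130.1 and 30.5 CPM there, on 8 and 6 UMIs (2.09, 0.38 to 3.90). For Cd40lg within cluster 5 the interval of -0.78 to 2.22 included 0. Among clones of the lymph node alone, Icos was at 70.99 CPM (20 UMIs) in 100 cells of expanded clones and 32.3 CPM in 2007 cells of clones seen once (1.14, 0.40 to 1.79). After thinning, Icos was nearly even, in 6.38% (2.38 to 13.4) and 5.23% of cells. Median depths were 2592.5 and 4606 UMIs. Cd40lg was at 14.2 CPM (4 UMIs) and 5.05 CPM (1.49, -0.44 to 2.94), and Cd27 at 227 and 213 CPM. Slamf1 and Tnfrsf4 had 0 UMIs in expanded clones, each with an upper limit of 13.1 CPM. That limit lies above their 5.91 and 5.58 CPM in clones seen once, so no difference was shown. The share of all genes past 2-fold was not measured for this comparison.

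Around the 7 genes, 54 of 62 genes of a costimulation and coinhibition list were measured; Cd70, Tnfsf11, Cd80 and 5 others were not analysed here. In Itgae-positive over Itgae-negative cells 7 of the 54 were at least 2-fold higher (13.0%) and 1 lower (1.85%), against 4.02% and 0.996% of all genes, with a median log2 ratio of 0.37, against 0.21 over all genes. The inhibitory receptor gene Ctla4 was at 67.6 CPM in Itgae-positive and 9.80 CPM in Itgae-negative cells (2.79), Pdcd1, encoding PD-1, at 20.02 and 3.32 CPM (2.59) and Cd86, encoding a ligand of CD28, at 28.8 and 6.87 CPM (2.07). The lowest ratios were those of Tnfrsf25 (-1.05), Crtam (-0.49) and Bcl2l1 (-0.06). By Izumo1r 7 genes were higher (13.0%, against 3.82% of all genes) and none lower (against 3.35%), led by Ctla4 (2.83), Cd86 (2.38) and Pdcd1 (1.87), with Bcl2l1 (-0.71), Tnfsf14 (-0.66) and Akt1 (-0.58) lowest. By Tcf7 none was higher (against 0.155% of all genes) and 2 were lower (3.70%, against 0.188%), Pdcd1 (-1.67) and the inhibitory receptor gene Tigit (-1.03), followed by Tnfsf14 (-0.57), and the highest ratios were those of Cd86 (0.50), Tnfrsf26 (0.40) and Btla (0.35).

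The nearest relatives of the 7 genes, taken from that list by family with values known, took several patterns. Of the Slam family, Ly9 was at 105 CPM in cluster 4, 90.8 CPM in cluster 5 and 99.1 CPM in the other cells, close to even. Cd84 was at 129, 66.5 and 63.7 CPM in the same order and so, like Slamf6, was highest in cluster 4. Cd48 was at 244, 452 and 157 CPM and Slamf7 at 46.0, 114 and 49.6 CPM, both highest in cluster 5. Sh2d1a, which encodes the adaptor SAP, was at 132, 66.5 and 98.0 CPM. Of the TNF receptor family, Tnfrsf9, encoding the costimulatory receptor 4-1BB, was at 34.2, 8.11 and 6.65 CPM, an order shared by Tnfrsf4, and Tnfrsf18 at 95.7, 84.3 and 58.6 CPM. Of the TNF ligands, Tnfsf10, encoding TRAIL, was at 23.0, 86.0 and 18.0 CPM. Ctla4, the inhibitory counterpart of Cd28, was at 109, 9.73 and 4.38 CPM.

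As a description over 3266 cells of 1 library, which share their depth and clusters, the Pearson correlation of normalised log values named the genes most like each member. Cd40lg went with S100a4 (r = 0.246), Capg (0.237) and Trat1 (0.201), and Icos with Itgae (0.216), Capg (0.200) and Id2 (0.190). Slamf6 went with Ifi27l2a (0.192), Tspan32 (0.186) and Ctla4 (0.184), and Slamf1 with Capg (0.185) and Serpinb6a (0.153). For Cd27, Cd28 and Tnfrsf4 no gene reached 0.15. All these values are low.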

How the data were processed

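Lymph node RNA was analysed as deposited: a table of raw UMI counts, one column for each cell, made by the authors from 4 pooled lanes. Bowtie, RSEM and build mm10 are named, per the submitters' processing notes, without versions or roles. The authors' deposited receptor tables gave CDR3 sequences and UMI counts of each receptor chain. Skin RNA was not analysed here.

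Counts were summed over cells to CPM. Groups were cells with at least 1 UMI of Itgae, Izumo1r or Tcf7 against none, Leiden clusters (scanpy 1.11.5, igraph 0.11.9; 2000 variable genes, 63 receptor segment genes left out, 30 components, 15 neighbours, resolution 1.0) and clone classes. With 1 library no test was made. A gene counted as called past 2-fold, among genes with at least 50 UMIs, or past 1.5 for pairs. Intervals are Clopper-Pearson for shares, exact Poisson for CPM and conditional binomial for ratios (scipy 1.17.1). Calculations ran in python 3.11.15 with numpy 2.4.6 and pandas 2.3.3 and were tested on simulated data. No doublet caller was run; the 315 cells with 2 or more β chains, which may hold doublets, were left out as an alternative. Members and lists were chosen with earlier results of these data known. Named by rule beyond the 7 genes and their 3 partners were the 3 highest and 3 lowest list genes per partner, the 3 genes of highest r per member (r of at least 0.15) and the leading 5 genes of a cluster, seen in at least 20% of its cells. Cell type markers and relatives by family were named outside this rule. The relatives were picked with values known, and not all that were measured are given by cluster. Alternatives were thinning, at least 2 UMIs, other scalings, other clusterings, splits within clusters and clones by the β chain alone.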

Additional observations from a re-analysis of the deposited data

How the results depend on the processing

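Of 369 alternatives for single genes and pairs, 262 stayed close to the value reported, 92 moved and 15 were counted as changed in direction. Close means inside the counting interval of the reported value, which is wide for the rare genes. A change of direction was counted only where that interval excluded 0, or 1 for pairs. Other values also changed sides without being counted. Within cluster 4, Cd28 by Tcf7 went from 0.07 to -0.30, and Slamf6 with Cd40lg from a ratio of 1.48 to 0.88. The share of cells with any of the 7 genes was 46.7% after thinning and 35.7% with at least 2 UMIs, against 78.4%. The count of 4 genes higher with Itgae became 1 within cluster 4, 0 within cluster 5 and 2 within clusters 0 to 3 and 6. That of 4 with Izumo1r became 0, 2 and 0 in the same order. The count of 8 pairs became 2 within cluster 4, 3 within cluster 5 and 6 within clusters 0 to 3 and 6, where each of the 6 rests on 1 to 8 cells. No share over all genes or pairs was measured within clusters to set beside these counts. Among the 15 counted, direction turned for Itgae within cluster 4 (Slamf1 -0.16, Slamf6 -0.057) and cluster 5 (Slamf1 -0.23, Slamf6 -0.69, Tnfrsf4 -0.88). It also turned for Izumo1r within cluster 4 (Cd40lg -0.12) and cluster 5 (Cd27 -0.29, Cd40lg -0.25). For Tcf7 it turned within clusters 0 to 3 and 6 (Slamf1 0.70, Cd40lg 0.16) and for Slamf6 with the mean of each cell's CPM (-0.12) or within cluster 5 (-0.26). Within cluster 5, the co-detection ratio of Icos was under 1 with Slamf1 (0.795), Tnfrsf4 (0 cells, ratio 0) and Cd40lg (0.749). Their causes were not tested, and few UMIs stand behind the values within cluster 5. No paired analysis was possible because 1 RNA library was used. Slamf1, Cd40lg and Tnfrsf4 rest on 122, 115 and 99 UMIs in all.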
